A study of Homo sapiens with 4 samples.

Results

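NAT10 and THUMPD1 encode the enzyme and the adapter of N4-acetylcytidine (ac4C) formation in human RNA. Both genes were taken by their RefSeq symbols, 2 of 20037 protein-coding genes on chromosomes 1 to 22, X and Y. All peaks from 50 kb before to 50 kb past each gene were read from 2 deposited CUT&Tag peak lists for CHAF1A, a subunit of CAF-1, the chaperone that places histones on newly made DNA. In CUT&Tag an antibody tethers a transposase to chromatin, so that sequenced fragments pile up near its target. The cells were RBE, an established line of human intrahepatic cholangiocarcinoma, and no genetic change is given for either group. One group received siRNA against CHAF1A (2 samples) and the other a control siRNA (2 samples), both by lipid transfection, 48 hours before the cells were taken. The title of the series ties NAT10 and ac4C to chromatin remodelling and the silencing of transposable elements.

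NAT10 acetylates cytidines with acetyl-CoA and ATP. Its known targets include 18S rRNA, where the box C/D small nucleolar RNA SNORD13 guides it, and the tRNAs for serine and leucine. There it needs THUMPD1, a tRNA-binding protein with a THUMP domain. NAT10 is also a part of the small subunit processome, the assembly that cuts and folds the precursor of 18S rRNA.

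Each group had 1 list, the list named si being read here as CHAF1A siRNA and the list named NC as control siRNA. Those names match the sample titles only in part, and the samples of a group could not be told apart within a list. The differences described here thus come without replicates, and groups are compared without p-values. The CHAF1A siRNA list held 97653 peaks, 15 of them within 50 kb of NAT10 or THUMPD1, and the control list 76313, with 10 there. Their genome backgrounds, solved from the deposited values, were 8.49 and 6.34 overlapping reads. CHAF1A RNA or protein was not analysed here, so the knockdown itself was not checked. As a check of the cell type, genes of the biliary epithelium were read (KRT7, KRT19, EPCAM, SOX9, KRT8 and KRT18). A peak at a gene end was found at 5 of 6 with CHAF1A siRNA and 6 of 6 with control siRNA. KRT7 had it in the control list only. Over all protein-coding genes the shares were 64.3% and 61.1%, so this count alone does not identify the cell type. The KRT19 peak lay outside that gene, and the spans of KRT8 and KRT18 overlap, so these can share a peak. The hepatocyte genes ALB, APOA1 and TTR had none in either list. The leukocyte genes PTPRC and CD3E had none in either list, and the fibroblast genes COL1A1 and PDGFRB had one in both lists. A peak is not expression, and no untargeted control library was used here to separate CHAF1A signal from open chromatin.

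Both genes carried a peak over their 5′ ends in both lists, as 50.4% of 15843 protein-coding genes did. The 250 bases upstream of each 5′ end are shown because they lie under those peaks, except for the outermost bases of the THUMPD1 stretch in the control list (RefSeq, GRCh38.p14, both genes matched). The NAT10 stretch is chr11:34105379-34105628 on the plus strand, and the THUMPD1 stretch is chr16:20741819-20742068 on the minus strand. Capitals mark matches to a short list of promoter motifs, which was chosen after the sequences had been seen.
NAT10: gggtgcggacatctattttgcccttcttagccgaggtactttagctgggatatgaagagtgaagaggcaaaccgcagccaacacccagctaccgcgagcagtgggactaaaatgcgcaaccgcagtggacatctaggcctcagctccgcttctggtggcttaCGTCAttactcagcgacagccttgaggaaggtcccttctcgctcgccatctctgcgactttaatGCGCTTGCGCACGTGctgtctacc
THUMPD1: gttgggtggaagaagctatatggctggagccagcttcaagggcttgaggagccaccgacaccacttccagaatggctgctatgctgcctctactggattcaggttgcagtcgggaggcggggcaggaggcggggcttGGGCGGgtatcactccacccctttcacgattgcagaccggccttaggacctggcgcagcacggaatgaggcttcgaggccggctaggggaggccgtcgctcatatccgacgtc
In NAT10 the capitals mark an NRF1-type motif (GCGC and TGCGC with any 1 base between them) at positions -24 to -15 from the 5′ end. It shares 1 base with an E-box (CACGTG) at -15 to -10, and the core of a cAMP response element (TGACG, here on the reverse strand) lies at -88 to -84. In THUMPD1 they mark a GC box (GGGCGG) at -113 to -108. Both strands were searched. Among 22049 such upstream stretches in the RefSeq table, 6.51% held the NRF1-type motif, 7.35% the E-box, 24.2% the cAMP response core and 53.7% the GC box. Neither stretch held the letters of the CCAAT box (in 32.8% of all stretches), of an ETS motif (CCGGAAG, 10.6%), of a YY1 motif (GCCATNTT, 3.63%) or of a TATA box (TATAAA, 9.04%). GC content was 55.6% in NAT10 and 62.0% in THUMPD1, with 16 and 15 CpG dinucleotides, against medians of 62.0% and 16 over all stretches. Of all stretches 31.8% had a lower GC content than NAT10 and 49.4% a lower one than THUMPD1. A letter match is no evidence that a factor was bound.

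NAT10 lies on chromosome 11 at 34105629 to 34146908 on the plus strand. Its 5′ peak spanned 34104840 to 34105798 in the CHAF1A siRNA list, against 34105058 to 34105708 in the control list, and crossed from the upstream region into the gene. Exons were not used here. Its fold enrichment, the authors' ratio of summit pileup to local background with 1 read added to both, was 4.77 with CHAF1A siRNA and 6.74 with control siRNA. The −log10 q of these peaks was 31.3 and 41.5, and depends on the depth of each list. The summit lay 252 bases upstream of the 5′ end with CHAF1A siRNA, just outside the printed stretch, and 199 bases upstream with control siRNA, inside it. The peak was thus wider with CHAF1A siRNA, at 959 bp against 651 bp, with a lower fold. The solved pileups were 93 reads over a local background of 18.7 with CHAF1A siRNA, and 88 reads over 12.2 with control siRNA.

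THUMPD1 lies on chromosome 16 at 20733664 to 20741818 on the minus strand, wholly inside the annotated span of ACSM3 (20674405 to 20797581), a mitochondrial acyl-CoA synthetase gene. Its 5′ peak spanned 20741179 to 20742110 with CHAF1A siRNA and 20740984 to 20742028 with control siRNA. The summits lay 43 and 50 bases upstream of the 5′ end, so both fell inside the printed stretch and within 7 bases of each other. Fold enrichment was 6.18 with CHAF1A siRNA and 7.27 with control siRNA, and −log10 q was 32.0 and 37.0. The solved pileup was 73 reads in each list, over local backgrounds of 10.98 with CHAF1A siRNA and 9.18 with control siRNA.

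A peak at a gene end is common in these data. Within 1 kb of either gene end, 64.3% of protein-coding genes had a peak in the CHAF1A siRNA list, 61.1% in the control list and 56.2% in both, so a peak in both lists at 2 of 2 genes is not set apart by this count. A peak in the CHAF1A siRNA list only was found at 8.07% of genes and in the control list only at 4.90%, and at neither NAT10 nor THUMPD1. Over the 300-base promoter window (250 bases before to 50 after the 5′ end), 55.7% and 54.9% of 15843 genes had a peak. Among those promoter peaks, NAT10 had a higher fold than 47.0% in the CHAF1A siRNA list and 61.2% in the control list. THUMPD1 had a higher fold than 68.5% and 67.7%. The median promoter peak had a fold of 4.95 with CHAF1A siRNA and 5.93 with control siRNA. NAT10 and THUMPD1 thus lay in the middle and the upper-middle of the promoter peaks. Among all peaks of a list, NAT10 had a higher fold than 87.5% with CHAF1A siRNA and 89.0% with control siRNA, and THUMPD1 a higher one than 94.2% and 91.3%.

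To set the lists side by side, each summit pileup was divided by the genome background of its own list, giving a relative pileup. Its 95% exact Poisson interval covers counting error only, as do all intervals here. At the NAT10 5′ end the relative pileup was 10.9 (8.84 to 13.4) with CHAF1A siRNA and 13.9 (11.1 to 17.1) with control siRNA, a ratio of 0.789 (0.583 to 1.07, exact conditional binomial). At the THUMPD1 5′ end it was 8.60 (6.74 to 10.8) with CHAF1A siRNA and 11.5 (9.02 to 14.5) with control siRNA, a ratio of 0.747 (0.532 to 1.05). Both ratios were below 1 with intervals that include 1. The lower value was shared with promoters at large: over 6526 shared promoter peaks the median ratio was 0.819 and 78.9% were below 1. Of these peaks, 44.4% had a lower ratio than NAT10 and 35.6% a lower one than THUMPD1. The ratio of NAT10 was 1.06 times that of THUMPD1, and their intervals overlapped over most of their length. In bulk cells, fewer cells with signal and less signal per cell cannot be told apart.

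**Figure D1:**
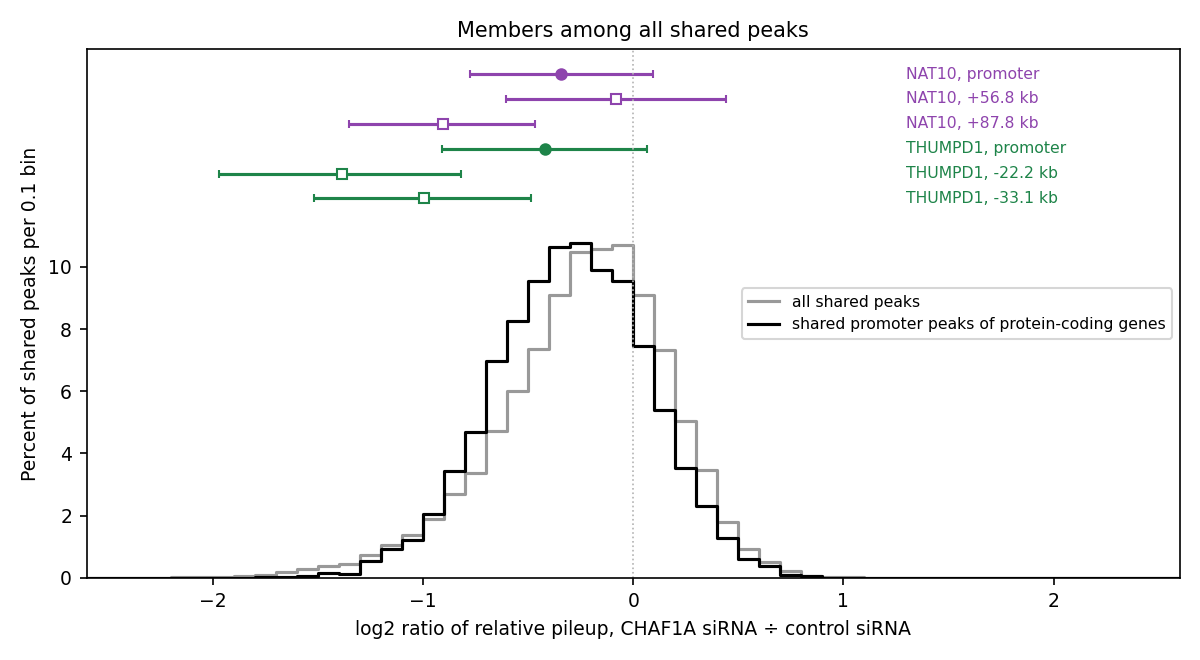
Ratio of the relative pileup, CHAF1A siRNA over control siRNA, on a log2 axis: lines give the percent of shared peaks per bin, and points give the shared peaks within 50 kb of NAT10 and THUMPD1 with 95% counting intervals. The 5′-end peaks of both genes (filled circles, ratios 0.789 and 0.747) lie near the middle of the promoter distribution, while the upstream peaks of THUMPD1 (open squares, 0.383 and 0.501) lie in the lower part of all shared peaks.

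Away from the 5′ ends, 3 of the 4 shared peaks within 50 kb had lower ratios than either 5′ end, and 1 in ABTB2 had a ratio closer to 1. Within 50 kb of THUMPD1 the CHAF1A siRNA list held 3 peaks and the control list 5. All 3 of the CHAF1A siRNA list overlapped a control peak, and 3 of the 5 control peaks overlapped a CHAF1A siRNA peak. Over the whole lists, 47.5% of CHAF1A siRNA peaks and 61.9% of control peaks overlapped a peak of the other list. Upstream of THUMPD1, inside the ACSM3 span, a shared peak at 20763472 to 20764248 (CHAF1A siRNA) and 20763458 to 20764067 (control siRNA) had its summit at the same base in both lists, 22.2 kb from the 5′ end. Its fold was 4.28 with CHAF1A siRNA and 8.61 with control siRNA. Its relative pileup was 4.71 (3.37 to 6.42) with CHAF1A siRNA and 12.3 (9.72 to 15.3) with control siRNA, a ratio of 0.383 (0.255 to 0.568). Of all 44812 shared peaks with a solved pileup, 1.15% had a lower ratio.

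A further shared peak, 33.1 kb upstream of THUMPD1, spanned 20774632 to 20775555 with CHAF1A siRNA and 20774759 to 20775496 with control siRNA. Its fold was 5.44 and 9.82. The relative pileup was 6.48 (4.88 to 8.43) with CHAF1A siRNA and 12.9 (10.3 to 16.1) with control siRNA, a ratio of 0.501 (0.349 to 0.713), with 4.71% of shared peaks lower. In the control list the relative pileups of these upstream sites and of the THUMPD1 5′ end had overlapping intervals. With CHAF1A siRNA the site at 22.2 kb lay below the 5′ end with no overlap of the intervals, and the interval of the site at 33.1 kb overlapped those of both. The remaining control peaks near THUMPD1 had no CHAF1A siRNA counterpart: 20764479 to 20764645 (fold 2.89, 25 reads) and 20784147 to 20784325 (fold 4.22, 30 reads), the second of which is also inside ERI2, a gene of the exoribonuclease family, and within 1 kb of the U6 pseudogene RNU6-944P. Of control peaks with a −log10 q within 10% of theirs, 71.2% and 42.4% had no counterpart either. At the same relative pileup the CHAF1A siRNA list would have had 33.5 and 40.2 reads there. A called peak scaled up together with its local background stays past the threshold by construction. These read numbers thus cannot show why no CHAF1A siRNA peak was called there. No peak of either list lay between the 3′ end of THUMPD1 and the edge of the window.

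**Figure D2:**
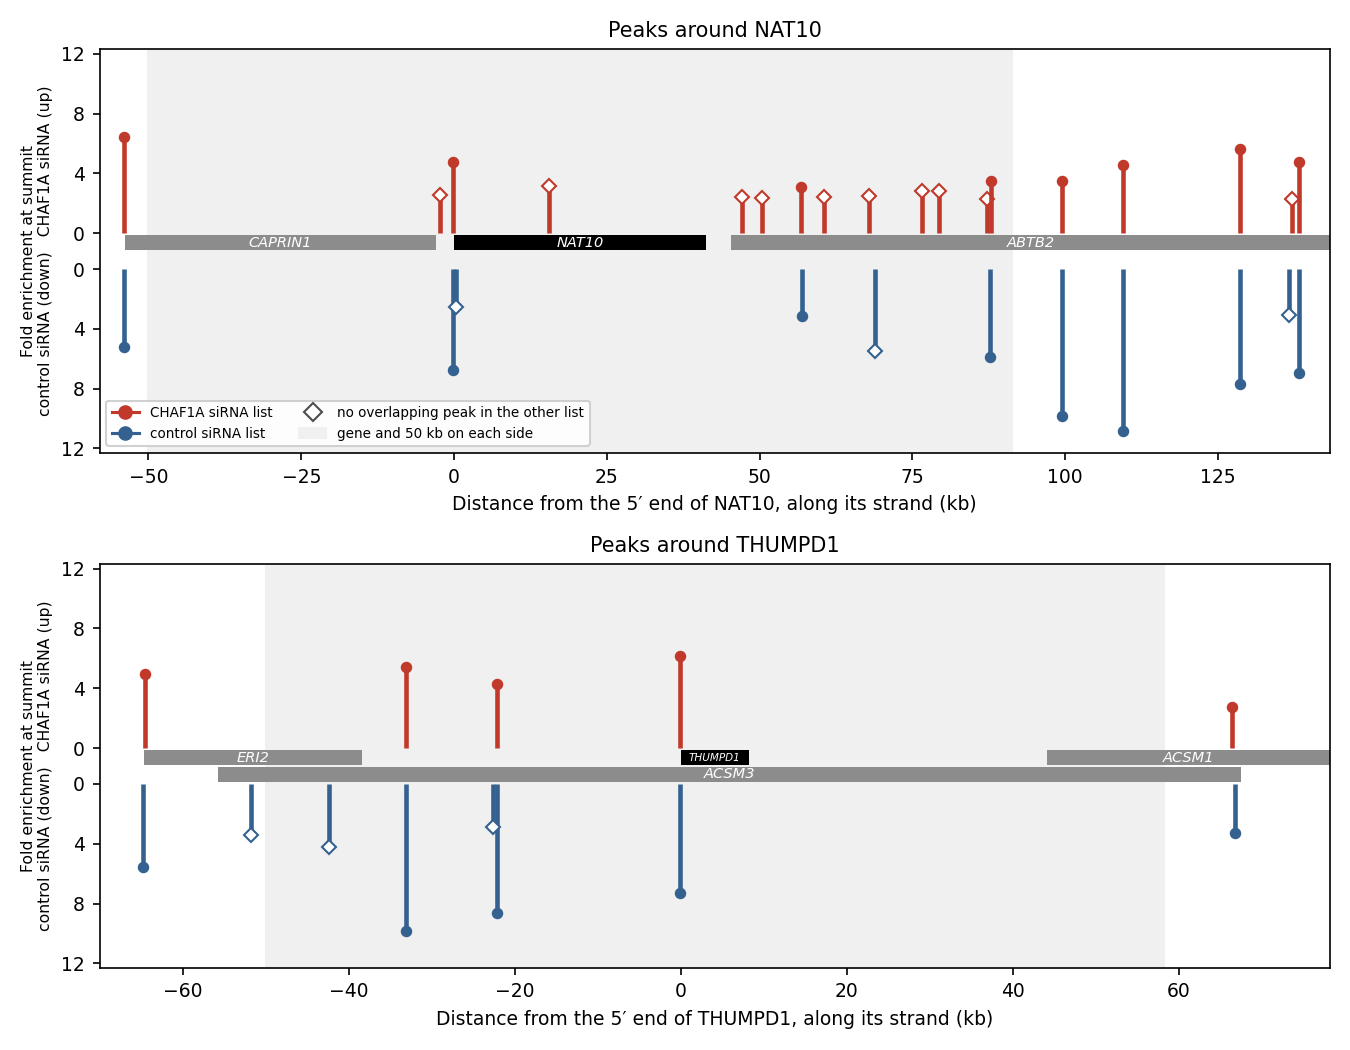
Fold enrichment at each summit (CHAF1A siRNA up, control siRNA down) against the distance from the 5′ end of NAT10 (above) and THUMPD1 (below), with gene spans as bars and the 50 kb windows shaded. Open diamonds are peaks with no overlapping peak in the other list, and the shaded windows hold 9 CHAF1A siRNA and 2 control peaks around NAT10, and 2 control peaks around THUMPD1.

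Around NAT10 the count ran the other way, with 12 CHAF1A siRNA and 5 control peaks that covered 5078 and 2926 bp. In each list 3 of them overlapped a peak of the other list, 3 of 12 with CHAF1A siRNA and 3 of 5 with control siRNA, against 47.5% and 61.9% of all peaks. They were the 5′ end and a pair of sites in ABTB2 (34150987 to 34358010, minus strand), a gene for a BTB and ankyrin repeat protein that follows NAT10. Over all protein-coding genes the median was 8 and 6 peaks per window. An excess of CHAF1A siRNA peaks as large as that at NAT10 was found at 9.51% of genes, and an excess of control peaks as large as that at THUMPD1 at 8.42%. Neither count is thus rare among genes, and windows of neighbouring genes overlap. The windows are also longer for longer genes, and these shares were not adjusted for length. Among peaks with −log10 q of at least 10 the excess around NAT10 was gone, with 3 CHAF1A siRNA and 4 control peaks.

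The 9 peaks around NAT10 found with CHAF1A siRNA only were weak, with folds of 2.29 to 3.18 and −log10 q of 5.15 to 7.01. They lay at 34103160 to 34103452, between NAT10 and the 3′ end of CAPRIN1, at 34120841 to 34121118 inside NAT10, and at 7 sites in ABTB2. CAPRIN1 encodes an RNA-binding protein of stress granules, and its 3′ end lies at 34102610. The peak inside NAT10, 15.5 kb past the 5′ end, had 32 reads over a local background of 9.38. At this strength sharing was uncommon in the whole list, where 23.3% of 23841 CHAF1A siRNA peaks with −log10 q of 5 to 7.1 overlapped a control peak. Scaled to the control background these 9 sites would have had 23.9 to 41.8 reads. They stayed past the threshold when their own CHAF1A siRNA local background was scaled down alike. The local background of the control list at these sites is not known. At the control peaks of this window it was 11.7 to 17.5 reads, so whether the 9 sites would have been called there was not tested. Local background in the NAT10 window was raised, at 1.105 to 2.68 times the genome background with CHAF1A siRNA and 1.85 to 2.76 times with control siRNA. In the THUMPD1 window it was 1.01 to 1.29 times and 1.00 to 1.45 times. The part of this background in the peak counts was not tested.

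In the control list only, NAT10 had a small second peak just inside the gene at 34105904 to 34106069, with a fold of 2.55 and 33 reads at a summit 280 bases past the 5′ end. Of control peaks with a −log10 q within 10% of its own, 69.3% had no CHAF1A siRNA counterpart. A stronger control-only site lay in ABTB2 at 34174427 to 34174930, with a fold of 5.50, a −log10 q of 27.2 and 69 reads. Of control peaks with a −log10 q within 10% of it, 14.01% had no CHAF1A siRNA counterpart. The nearest CHAF1A siRNA peak, at 34172921 to 34173467, ended before it.

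The shared ABTB2 peaks differed from each other. The one 56.8 kb past the NAT10 5′ end had a relative pileup of 8.48 (6.64 to 10.7) with CHAF1A siRNA and 8.99 (6.81 to 11.7) with control siRNA, a ratio of 0.943 (0.657 to 1.36). The one 87.8 kb past it had 8.83 (6.95 to 11.1) with CHAF1A siRNA and 16.6 (13.6 to 20.1) with control siRNA, a ratio of 0.533 (0.391 to 0.724). Of shared peaks, 62.8% and 6.43% had a lower ratio.

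The lowest ratios among the shared peaks of both neighbourhoods lay outside the 50 kb window of NAT10, which ends at 34196908. With CHAF1A siRNA these peaks start at 34204713 and 34215006. On the far side of NAT10, deeper in ABTB2, peaks 99.5 kb and 109.5 kb past the 5′ end had folds of 3.49 and 4.54 with CHAF1A siRNA, against 9.82 and 10.8 with control siRNA. At the nearer one the relative pileup was 7.30 (5.60 to 9.36) with CHAF1A siRNA and 34.2 (29.8 to 39.1) with control siRNA, a ratio of 0.213 (0.158 to 0.284). At the farther one it was 9.19 (7.26 to 11.5) with CHAF1A siRNA and 38.2 (33.5 to 43.3) with control siRNA, a ratio of 0.241 (0.184 to 0.312). Only 0.0156% and 0.0446% of shared peaks had lower ratios. Set over local in place of genome background, the ratios were 0.355 and 0.422, still below 1. Their rank among shared peaks on that scale was not computed. The next ABTB2 sites, at 128.5 kb and 138.2 kb, had ratios of 0.655 (0.485 to 0.885) and 0.548 (0.411 to 0.727). On the near side, the peak over the 5′ end of CAPRIN1, 53.9 kb before NAT10, had a fold of 6.44 with CHAF1A siRNA and 5.24 with control siRNA. Its relative pileup was 13.4 (11.1 to 16.1) with CHAF1A siRNA and 10.7 (8.33 to 13.6) with control siRNA, a ratio of 1.25 (0.919 to 1.72), higher than 94.0% of shared peaks. Outside the THUMPD1 window, the peak at the ends of ERI2 and REXO5, an RNA exonuclease gene, had a ratio of 0.787 (0.566 to 1.09), and a weak peak in ACSM3 and ACSM1 had 25 reads in each list.

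**Figure D3:**
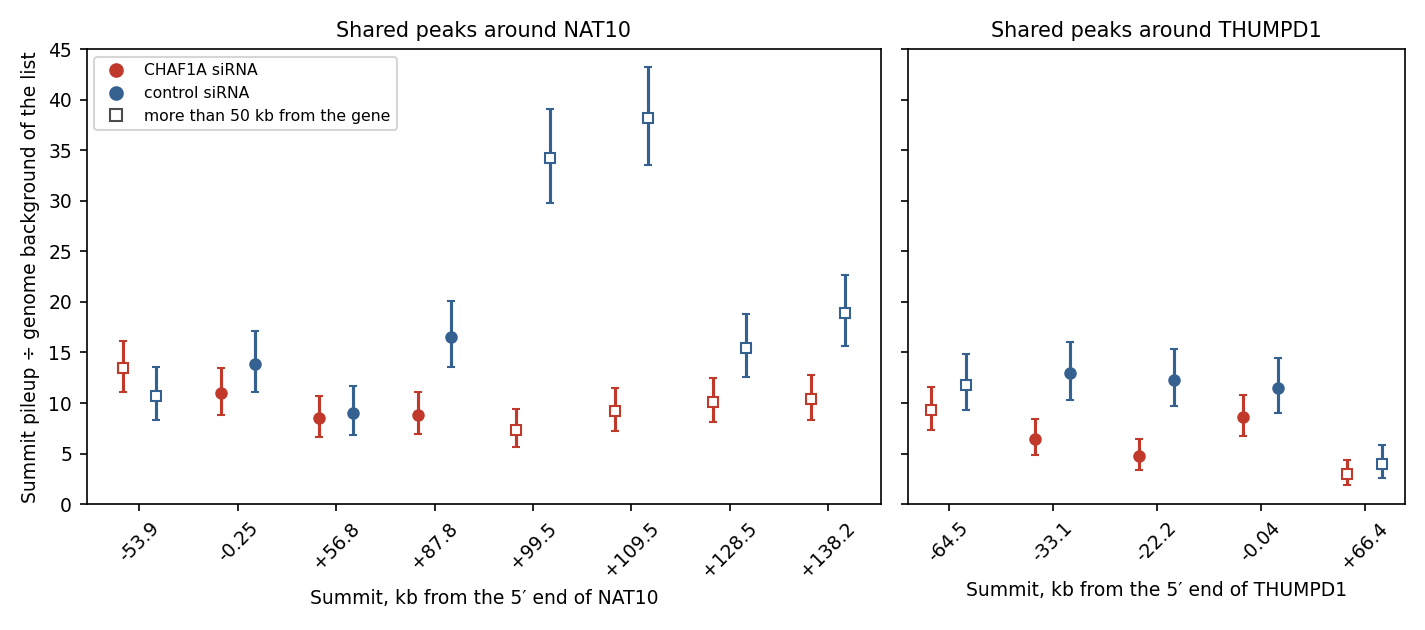
Summit pileup divided by the genome background of its list at each shared peak within 100 kb of NAT10 (left) and THUMPD1 (right), with 95% exact Poisson intervals. Peaks 99.5 kb and 109.5 kb past the NAT10 5′ end stand at 7.30 and 9.19 with CHAF1A siRNA, against 34.2 and 38.2 with control siRNA, while the 5′-end peaks of NAT10 and THUMPD1 have overlapping intervals.

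SNORD13, which guides NAT10 to 18S rRNA, completed the set of writer, adapter and guide, and 3 of 3 had a peak at a gene end in both lists, against 56.2% of protein-coding genes. Its peak had a fold of 4.36 with CHAF1A siRNA and 5.54 with control siRNA, with relative pileups of 12.1 and 17.98 and a ratio of 0.675 (0.512 to 0.889). Among 4 genes for THUMP domain proteins, THUMPD1 included, 3 had a peak in both lists (the share of all protein-coding genes is again 56.2%) and THUMPD2, which encodes a methyltransferase of U6 small nuclear RNA, had none. THUMPD3, a tRNA methyltransferase gene, had folds of 5.59 with CHAF1A siRNA and 7.56 with control siRNA, and a ratio of 0.626 (0.425 to 0.920). TRMT11, also a tRNA methyltransferase gene, had folds of 4.36 and 5.36 and a ratio of 0.711 (0.489 to 1.03). The ratios of these genes, like those of NAT10 and THUMPD1, lay on the lower side of 1, as those of most promoters did.

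Of 40 genes of the small subunit processome and 18S rRNA maturation, 35 (87.5%) had a peak at a gene end with CHAF1A siRNA and 37 (92.5%) with control siRNA, against 64.3% and 61.1% of all protein-coding genes. NOP14, NOL11 and IMP3, all processome factors, led both lists by −log10 q, followed by UTP18 with CHAF1A siRNA and by the helicase gene DHX37 with control siRNA. NOL11 had folds of 17.4 with CHAF1A siRNA and 18.4 with control siRNA, IMP3 15.4 and 17.2, NOP14 14.2 and 15.6, UTP18 15.6 and 15.5, and DHX37 10.4 and 11.8. All of these were stronger than NAT10 and THUMPD1. PWP2 (fold 4.90) and UTP14A (fold 5.45) had a peak in the control list only. NOC4L, a processome factor, and SNU13, a core protein of box C/D particles, had none in either list. BYSL had none at its annotated gene ends, though a peak of each list lay over its promoter window.

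In 29 processome genes the strongest peaks of the lists were the same site with a solved pileup. Among those left out were NOP14, NOL11, IMP3, UTP18 and DHX37, whose peaks were too strong for the pileup to be solved. The ratios of the 29 genes had a median of 0.890 and ranged from 0.549 to 1.33. They were below 1 in 25 genes, and the median over shared promoter peaks was 0.819. The lowest was RRP9, a protein of the U3 particle, at 0.549 (0.431 to 0.698). The highest was FBL, the gene of the rRNA 2′-O-methyltransferase fibrillarin, at 1.33 (1.06 to 1.69). That peak, at 39833423 to 39834374 with CHAF1A siRNA, lay wholly outside the annotated span of FBL (39834458 to 39846379). The strongest peak near either gene end need not be the promoter peak, to which the median of 0.819 belongs. NAT10 and THUMPD1 lay inside the range of the processome ratios, below their median. A peak near a gene boundary can belong to a neighbouring gene, which was not resolved here.

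**Figure D4:**
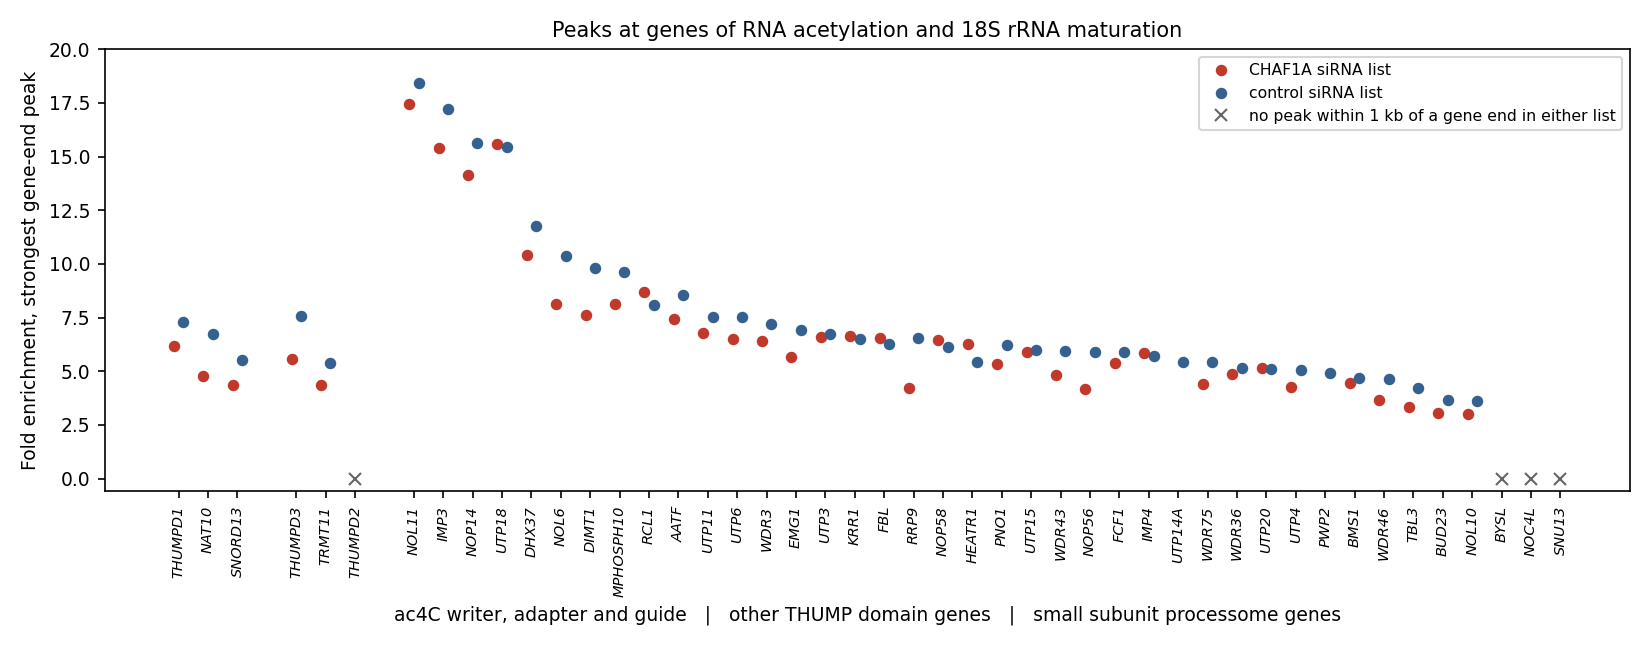
Fold enrichment of the strongest peak within 1 kb of a gene end, CHAF1A siRNA left of control siRNA for each gene, ordered within each group by the higher value. NAT10 (4.77 and 6.74) and THUMPD1 (6.18 and 7.27) sit at the level of most processome genes, well below NOL11 (17.4 and 18.4).

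The genes of the RNAs that NAT10 acetylates were also read. Of 26 tRNA genes for serine, 9 had a peak within 1 kb with CHAF1A siRNA and 17 with control siRNA, and of 32 for leucine 15 and 19. Over all 401 nuclear tRNA genes the shares were 47.4% with CHAF1A siRNA and 63.1% with control siRNA, so the lower count with CHAF1A siRNA was shared by tRNA genes at large. A control peak only was found at 8 of the 26 serine genes and 4 of the 32 leucine genes, against 18.7% of all tRNA genes, and a CHAF1A siRNA peak only at none of them, against 2.99%. The 8 serine genes with a control peak only all lay on chromosome 6, where most of the 26 serine genes lie. Among them were TRS-TGA3-1 (fold 5.64, −log10 q 85.7), TRS-CGA3-1 (fold 6.20, −log10 q 54.7) and TRS-TGA4-1 (fold 5.99, −log10 q 44.7). The leucine genes with a control peak only were TRL-AAG1-1 (fold 4.00), TRL-AAG1-2 (fold 3.4), TRL-TAG2-1 (fold 3.07) and TRL-TAG1-1 (fold 2.43). Among the serine and leucine genes TRL-CAA1-1 had the strongest peak in both lists, with folds of 13.8 with CHAF1A siRNA and 13.2 with control siRNA. Many tRNA genes are near-identical copies that sit in clusters and can share a peak or reads, so single copies are uncertain.

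The 18S rRNA genes RNA18SN1, RNA18SN2 and RNA18SN3 on chromosome 21 had a peak in both lists, with folds of 2.06 to 2.37 with CHAF1A siRNA and 2.45 to 2.68 with control siRNA. Their relative pileups were 40.9 to 52.8 with CHAF1A siRNA and 100.2 to 110.7 with control siRNA, and the ratios were 0.408 to 0.477. In both lists the strongest peak of RNA18SN2 lay outside the annotated gene, and those of RNA18SN1 and RNA18SN3 lay inside. The ranges thus mix different positions of the repeat. These ratios use the genome background. The folds, which use local background, differed much less between the lists. They were 2.37 with CHAF1A siRNA and 2.68 with control siRNA at RNA18SN1, 2.24 and 2.45 at RNA18SN2, and 2.06 and 2.48 at RNA18SN3. These copies are near-identical repeats, so reads cannot be given to 1 of them, and RNA18SN4 and RNA18SN5 were not analysed here.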

How the data were processed

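CHAF1A CUT&Tag was analysed from 1 deposited peak list per group; how its 2 samples were joined is not stated in the sources used here. Per the submitters' processing notes, fastp 0.20.1, Bowtie2 2.2.5, MACS2 2.1.2, deepTools 3.4.3 and the build hg38 were used, and a background library is not named there. The deposited fold enrichment is a linear ratio within each list, and p and q are deposited as −log10 values. The lowest −log10 p was 5.00 in each list. The analysis kept chromosomes 1 to 22, X and Y and left out 886 CHAF1A siRNA and 868 control peaks.

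Pileup and local background at each summit were solved from the fold, (pileup + 1)/(background + 1), and the Poisson tail, for peaks with −log10 p under 290. This gave a pileup within 0.02 of a whole read for 99.2% of CHAF1A siRNA and 99.1% of control peaks. The most frequent background was taken as that of the genome. It depends on reads times fragment length, and read totals were not used here. The solution and the overlaps were tested on simulated data and against bedtools 2.31.1. Shared means overlap by at least 1 bp, and a shared pair is the strongest overlapping peak in both directions. Genes, 5′ ends and sequences came from RefSeq tables of GRCh38.p14.

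The members, gene lists and the rule for named genes were chosen with earlier results of these data known. The rule took the members with all their peaks, neighbouring genes with a peak at an end, and, per pathway list, the 4 strongest genes and those with a peak in 1 list or none. For tRNA genes some of these are given as counts. The result of 1 cell marker gene is not reported here. Alternatives were windows of 20 and 100 kb, a −log10 q minimum of 5 or 10, lists cut to the same number of peaks, scaling to the control background, 50% reciprocal overlap, 3 kb at gene ends, other scalings of the ratio and, added later, 200 bp at tRNA genes. The work used scipy 1.17.1, numpy 2.4.6 and pandas 2.3.3 in Python 3.11.15, and figures were drawn with matplotlib 3.10.9.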

Additional observations from a re-analysis of the deposited data

How the results depend on the processing

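No paired analysis was possible because each group has 1 list and no column keeps its samples apart; for the same reason no sample could be left out. Of 96 recomputed values, 87 stayed within 1.5 times the reported count or within its counting interval. This tally overstates stability, because some of these values could not move by construction. The cut to the same number of peaks leaves the control list as it is. A wider gene-end window cannot change a count that already holds every gene of its set. All 9 values that moved were counts of peaks around NAT10 and THUMPD1. Counts of peaks followed the window: with 20 kb on each side NAT10 had 7 CHAF1A siRNA and 3 control peaks and THUMPD1 1 and 1, and with 100 kb NAT10 had 18 CHAF1A siRNA and 11 control peaks and THUMPD1 5 CHAF1A siRNA and 8 control peaks. With −log10 q of at least 10, NAT10 had 3 CHAF1A siRNA and 4 control peaks, so the excess around NAT10 turned, and THUMPD1 had 3 and 3; the peaks left out are the weak ones, by construction. With the CHAF1A siRNA pileups and their own local backgrounds both scaled to the control genome background, NAT10 still had 12 peaks and THUMPD1 3. The local background of the control list was not used in this setting. The ratio at the NAT10 5′ end ranged from 0.689 (local background) to 0.964 (relative to the median promoter), and that at THUMPD1 from 0.747 to 0.912. Divided by the median ratio of all shared peaks, the ratio of CAPRIN1 was 1.44 (1.06 to 1.98), against 1.25 (0.919 to 1.72) before. This peak had the highest ratio among the shared peaks of both neighbourhoods, and the interval leaves out any error of the median. The 4 shared peaks within 50 kb but away from the 5′ ends had 0.441 to 1.09 on that scale. Depth set the precision: with 93 and 88 reads at the NAT10 summit and 73 and 73 at that of THUMPD1, the counting intervals of both ratios included 1.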
